A study of Mus musculus with 2 samples.

Results

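A set of 46 DNA damage response and repair genes was examined in a map of accessible chromatin from resting B cells. The genes were chosen by function, from 9 groups: the damage kinases, break sensing and chromatin signalling, end joining, homologous recombination, base excision and single-strand break repair, mismatch repair, nucleotide excision repair, translesion synthesis and the Fanconi anaemia pathway. They were taken from 22350 protein-coding genes on chromosomes 1 to 19 and X. The rule of choice uses no measured value. The series holds 2 samples, 1 DNaseI library and 1 input library, with no replicates. Both came from splenic B cells of Trp53+/+ mice of the C57/Bl6 strain, 8 weeks old and mock-treated, enriched with magnetic beads against the B cell marker B220. DNase I cuts accessible DNA, and the regions rich in its cuts are DNase I hypersensitive sites (DHS). The data of the DNaseI library are a list of 47542 DHS, each with a score from the authors' peak caller, while the input library had no table of its own among the files used here.

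Cells repair damaged bases, mismatches, bulky adducts and broken strands by separate pathways, each with its own sensors, nucleases, polymerases and ligases. Double-strand breaks are held by the MRN complex and signalled by the kinases Atm and Atr, and are then either joined directly by the Ku and DNA-PK machinery or copied from a sister strand with Brca1, Brca2 and their partners. B cells also use end joining, Ung and mismatch repair proteins to rearrange and diversify their antibody genes.

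The label of the cells was checked first on cell type markers. The B cell genes Ms4a1, Cd79a, Cd79b, Pax5, Cd22, Fcer2a and Cr2 each had a DHS over a transcription start site (TSS). Of 8 T cell markers only Cd5, which some B cells also use, had a DHS in its promoter window, and none had one over a TSS. A promoter DHS was found at 4 of 8 myeloid markers, with top scores from 12.3 to 51.1, and over a TSS at Cd14 (51.1). Of the erythroid genes, Klf1 had one (178, not over a TSS), and Alas2, Epor and Rhag had none. Cd3d, Cd3e, Cd3g, Cd4, Cd8a, Csf1r and Lyz2 had none. The scale of the score and the read depth are unknown, so that a missing DHS means only that none was called, and every value below describes this 1 library without a test.

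Nearly all of the 46 genes had accessible promoters. A promoter window was taken to reach 5 kb before and 2 kb beyond every annotated TSS of a gene. In these windows 45 of 46 genes (97.8%, 95% exact binomial interval 88.5 to 99.9) carried at least 1 DHS, and the exception was Nhej1. The same was true of 57% of all protein-coding genes and of 85.4% of the 8774 whose promoter is CpG-rich. CpG-rich here means that 55% or more of the 1000 bp around the main TSS were G or C and that CpG occurred at 0.6 times or more of the rate given by this composition (the CpG ratio). By this measure 34 of the 46 genes were CpG-rich and all 34 had a promoter DHS (89.7 to 100%). Of the 12 CpG-poor genes 11 had one (91.7%, 61.5 to 99.8), beside 38.7% of all CpG-poor genes. These intervals, and those that follow, cover counting error only.

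Most of the 12 CpG-poor genes narrowly missed the GC minimum. Nbn (GC 54.8%), Brca2 (54.7%), Mdc1 (54.3%), Xrcc6 (54.2%), Prkdc (54.1%), Ercc1 (53.1%), Dclre1c (52.8%), Brca1 (52.6%), Fancd2 (51.5%) and Rad54l (51.2%) fell short of it by a few percent. Of these, Xrcc6 (0.511), Dclre1c (0.460), Rad54l (0.449) and Ercc1 (0.441) also missed the CpG ratio of 0.6. Xrcc5 had a GC content of 48.0%, and Nhej1 stood apart at 39.9%. Under a class of at least 50% GC and a CpG ratio of at least 0.75, Nbn, Mdc1, Prkdc, Brca2 and Fancd2 became CpG-rich, while Chek1, Chek2, Trp53bp1, Xrcc4, Palb2, Ogg1, Lig1, Ddb1 and Ddb2 became CpG-poor, which left 30 CpG-rich genes.

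The accessible region sat on the start site itself. A DHS covered an annotated TSS in 45 of the 46 genes (97.8%, 88.5 to 99.9), beside 74.1% of CpG-rich genes, and the main TSS, the start of the transcript with the longest coding sequence, in 42 (91.3%, 79.2 to 97.6), beside 67.5% of CpG-rich genes. The centre of the strongest DHS lay within 500 bp of a TSS of its gene in 42 genes, at a median distance of 127 bp. In all, 70 distinct DHS fell into the windows, 0.147% of those on these chromosomes. Of these, 47 covered a TSS of their gene, with a median score of 102 and a median width of 1505 bp, and the 23 others had a median score of 45.4 and a median width of 587 bp. A single DHS was found at 27 genes, 2 at 12, 3 at 5 and 4 at Fancc alone. Thus 39.1% of the genes (25.1 to 54.6) had 2 or more, and 47% of CpG-rich genes did.

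**Figure D1:**
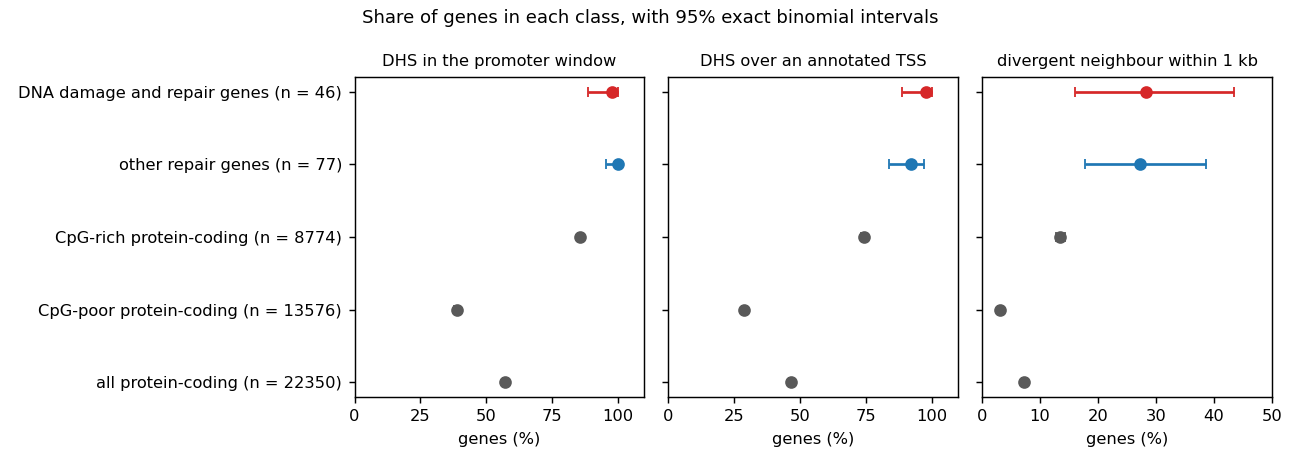
Share of genes (%) with a DHS in the promoter window (left), with a DHS over an annotated TSS (middle) and with a divergent neighbour within 1 kb (right), for the 46 DNA damage and repair genes, 77 other repair genes and all protein-coding genes by CpG class. Points are shares and bars 95% exact binomial intervals. The 46 genes stand at 97.8%, 97.8% and 28.3%, and CpG-rich genes at 85.4%, 74.1% and 13.5%.

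Repair genes outside the set were examined in the same way. A second list of 77 repair genes, from the checkpoint clamp to the Fanconi core complex, had a promoter DHS in 77 of 77 genes (95.3 to 100%) and a DHS over a TSS in 71 (92.2%, 83.8 to 97.1), over the main TSS in 75.3% (64.2 to 84.4). The weakest of this list were Neil3 (25.02) and Neil2 (34.4), glycosylases that remove oxidised bases, and Eme1 (35.1), a subunit of a junction nuclease. The strongest was Mus81, the nuclease partner of Eme1, with a score of 382.

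The scores of the promoter DHS lay within the range of other genes. For each gene the highest score among its promoter DHS was taken. Its median over the 45 genes was 108 (quartiles 94.2 and 156, range 45.4 to 308). Over CpG-rich genes with a promoter DHS the median was 114 (quartiles 75.7 and 164), and over the 77 other repair genes 113. Of the 45 genes 21 lay above the CpG-rich median, 10 above the upper CpG-rich quartile and 5 below the lower one. The 34 CpG-rich genes had a median of 105. The 11 CpG-poor genes had a median of 134, beside 80.1 for all CpG-poor genes with a promoter DHS. All 45 had a top score at or above 32.65, the median of the DHS list, as did 92.7% of CpG-rich genes with a promoter DHS.

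**Figure D2:**
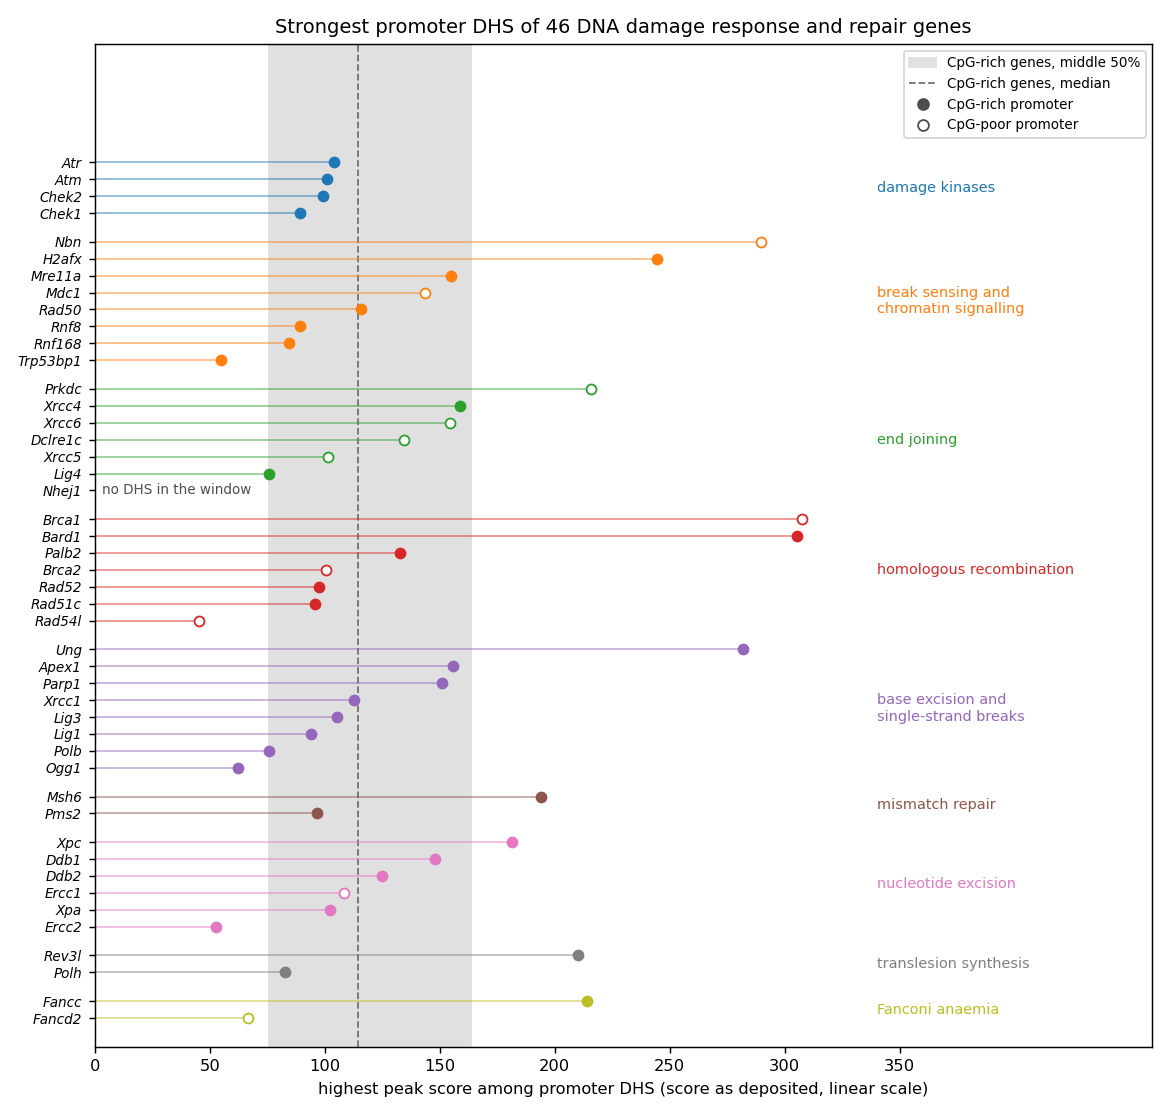
Highest score among the promoter DHS of each of the 46 genes (x axis, score as deposited on a linear scale), grouped by repair pathway. Filled points are CpG-rich and open points CpG-poor promoters, the grey band spans the quartiles of CpG-rich genes (75.7 to 164) and the dashed line their median (114). Brca1 and Bard1 stand highest at 308 and 306, Rad54l lowest at 45.4, and Nhej1 has no DHS.

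The 6 genes with the highest scores were Brca1 (308), Bard1 (306), Nbn (290), Ung (282), H2afx (244) and Prkdc (216). The score of Brca1 was above that of 99.1% of all DHS. The 6 lowest were Rad54l (45.4), Ercc2 (52.9), Trp53bp1 (54.8), Ogg1 (62.4), Fancd2 (66.7) and Lig4 (75.8). The score of Rad54l was above 61.98% of all DHS and above 11.5% of CpG-rich genes with a promoter DHS. It belongs to a DHS that covers no Rad54l start and is centred closest to Pomgnt1, and the DHS over the Rad54l start had a score of 18.9, above 27.6% of all DHS. At Ercc2 too the DHS over the start was the weaker one, at 32.8.

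The bases just before the TSS are given for genes from both ends of the range, on build mm9 and on the strand of the gene, 5′ to 3′. None of these bases lies in an annotated exon. Capitals mark exact matches to the promoter words described further on, and sequences without capitals hold none. Bard1 and Ung represent the highest scores, Msh6 the higher of the mismatch repair genes, Brca2 a promoter with a cyclic AMP response element and Trp53bp1 and Ercc2 the lowest scores. At Ercc2 most of the stretch lies in the gap of 136 bp between its DHS and so outside the called regions.
Bard1, chr1:71149721-71149870, minus strand: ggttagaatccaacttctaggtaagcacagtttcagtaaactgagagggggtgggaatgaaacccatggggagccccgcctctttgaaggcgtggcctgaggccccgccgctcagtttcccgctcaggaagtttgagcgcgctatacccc
Ung, chr5:114580245-114580394, plus strand: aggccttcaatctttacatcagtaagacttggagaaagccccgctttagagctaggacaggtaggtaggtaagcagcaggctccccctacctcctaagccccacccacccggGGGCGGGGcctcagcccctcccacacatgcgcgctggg
Msh6, chr17:88374240-88374389, plus strand: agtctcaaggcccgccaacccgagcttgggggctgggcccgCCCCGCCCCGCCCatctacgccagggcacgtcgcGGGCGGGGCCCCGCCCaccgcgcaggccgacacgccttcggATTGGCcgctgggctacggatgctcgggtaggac
Brca2, chr5:151325055-151325204, plus strand: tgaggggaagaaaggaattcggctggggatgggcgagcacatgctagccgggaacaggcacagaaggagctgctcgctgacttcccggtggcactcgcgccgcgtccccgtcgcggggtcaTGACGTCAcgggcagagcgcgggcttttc
Trp53bp1, chr2:121097144-121097293, minus strand: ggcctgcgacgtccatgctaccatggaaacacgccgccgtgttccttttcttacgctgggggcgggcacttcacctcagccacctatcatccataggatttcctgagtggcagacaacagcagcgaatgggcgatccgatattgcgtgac
Ercc2, chr7:19967209-19967358, plus strand: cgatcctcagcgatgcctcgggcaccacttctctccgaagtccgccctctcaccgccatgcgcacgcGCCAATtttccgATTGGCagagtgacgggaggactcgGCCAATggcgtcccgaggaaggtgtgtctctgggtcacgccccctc
The GC content of these stretches did not follow the scores. It was 57.3% at both Bard1 (306) and Trp53bp1 (54.8), 61.3% at Ung, 64.7% at Ercc2, 66.0% at Brca2 and 76.0% at Msh6. Across the 45 genes the top score had a Spearman rho of 0.0186 with the GC content of 1 kb around the TSS, 0.164 with the CpG ratio and 0.169 with gene length. The rho with the width of the same DHS was 0.439. These values are across genes of 1 library, which are not independent replicates.

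Among the damage kinases the top promoter scores were alike. Atm, the kinase that responds to double-strand breaks, had a top score of 101, and Atr, which responds to stretches of single-stranded DNA, had 104. Their effector kinases were at 99.2 for Chek2 and 89.1 for Chek1. All 4 lay between the lower quartile and the median of CpG-rich genes. Atr had 2 further DHS more than 4 kb upstream with scores of 87.5 and 29.3. The strongest DHS of Atr, centred 352 bp downstream of its TSS, was centred closest to a TSS of 1700065D16Rik.

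The break sensors spanned nearly the whole range. The MRN complex, which holds broken ends, had scores of 290 at Nbn, 155 at the nuclease gene Mre11a and 116 at Rad50. H2afx, the histone variant that is phosphorylated around breaks, had 244. Part of the sequence there is repeated in the genome, since 10.7% of the 31-base words in that DHS and 30.6% in its weaker neighbour (21.5) occur more than once in the assembly. Leaving out DHS with over 10% of such words left H2afx without a DHS. The ubiquitin ligases Rnf8 and Rnf168, which mark chromatin beside breaks, were at 89.1 and 84.4, and Trp53bp1, which reads that mark, was at 54.8. Mdc1, the adaptor that binds phosphorylated H2AX, had a top score of 144, but that DHS was centred 4186 bp upstream and lay closest to the start of the tubulin gene Tubb5. The DHS on either side of the Mdc1 start had scores of 68.8 and 56.2. The median of the 8 genes was 130.

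End joining combined high scores with the only gene without a DHS. Prkdc, the catalytic subunit of DNA-PK, had 216, and the Ku subunits that it binds had 155 at Xrcc6 and 102 at Xrcc5. Dclre1c, the Artemis nuclease that opens hairpins during antibody gene rearrangement, had 134. Xrcc4 and Lig4, whose products form the ligase complex, had 159 and 75.8. The strongest DHS at Xrcc6 covered its main start but was centred closer to a TSS of Pppde2. The enzymes of antibody gene rearrangement outside the set had weaker promoter DHS, at 55.4 for Rag1, 23.3 for Rag2 and 31.3 for Dntt. Of these only Rag2 had a DHS over a TSS.

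The missing DHS at Nhej1, the XLF factor that stabilises the ligase complex, went with the annotated start. GENCODE M1 places its first TSS on chromosome 1 at 75093213, in sequence with a GC content of 39.9% and a CpG ratio of 0.0768, and the closest DHS was 25356 bp away. The RefSeq promoter of Nhej1, matched exactly to mm9, starts 28587 bp further upstream at 75121800. A DHS with a score of 145 and a width of 2282 bp, chr1:75120517-75122798, covered that position, where the GC content was 54.8% and the CpG ratio 0.675. This score was above that of 92.4% of all DHS. The RefSeq gene is also longer, at 157881 bp on GRCm38.p6 beside 79501 bp in GENCODE M1. The bases upstream of both starts differ in the same way, with 0 CpG in the first of these sequences and 7 in the second, and the capitals mark an SP word.
Nhej1 at the GENCODE M1 start, chr1:75093214-75093363, minus strand: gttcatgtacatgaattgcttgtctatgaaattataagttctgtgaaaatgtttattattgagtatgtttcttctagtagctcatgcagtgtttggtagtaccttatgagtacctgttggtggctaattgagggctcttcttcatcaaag
Nhej1 at the RefSeq start, chr1:75121801-75121950, minus strand: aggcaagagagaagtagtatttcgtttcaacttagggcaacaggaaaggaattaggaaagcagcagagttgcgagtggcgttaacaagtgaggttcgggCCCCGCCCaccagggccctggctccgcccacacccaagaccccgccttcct
RefSeq promoters of 37 of the 46 genes were available and all 37 could be placed on mm9 by exact match. Of these, 34 had a RefSeq start inside a DHS, and the 3 others were Mdc1, Palb2 and Ogg1. With RefSeq starts added to those of GENCODE, an alternative chosen after the data had been seen, 46 of 46 genes had a promoter DHS.

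In homologous recombination the obligate partners Brca1 and Bard1, which form a ubiquitin ligase, had almost equal scores of 308 and 306. Palb2, which links Brca1 to Brca2, was at 133 and Brca2, which acts at strand exchange, at 100. The Palb2 score belongs to a DHS that covers no Palb2 start and is centred closest to Dctn5. The DHS over a Palb2 start had a score of 90.6. Rad52 and Rad51c, which assist strand pairing, were at 97.4 and 96.0, and the remodelling motor Rad54l at 45.4. The median of the 7 genes was 100.

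Base excision began with the strongest gene of its group. Ung, the glycosylase that removes uracil, had a top score of 282, and a second DHS at 169 was upstream of it was centred closest to Alkbh2. Ogg1, the glycosylase for oxidised guanine, was lowest at 62.4. The genes for the later steps were at 156 for the endonuclease Apex1, 76.0 for the polymerase Polb, 113 for the scaffold Xrcc1, 105 for Lig3 and 94.2 for Lig1. The DHS at the Lig1 start had 18.8% repeated 31-base words, and without it the top score of Lig1 was 12.05, near a later start. Parp1, which senses single-strand breaks, had 151.

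In mismatch repair Msh6, which recognises mispaired bases, had 194, and Pms2, which nicks the strand, had 96.6. Nucleotide excision ran from 181 at the damage sensor Xpc to 52.9 at the helicase Ercc2. The Ercc2 DHS with that score had 15.8% repeated words, and without it the top score was 32.8. The subunits of the ultraviolet damage sensor were at 148 for Ddb1 and 125 for Ddb2, the verification factor Xpa at 102 and the nuclease subunit Ercc1 at 108. The DHS at Ercc1 was the widest, at 3965 bp. For translesion synthesis, Rev3l had 210 and Polh 82.6. In the Fanconi anaemia pathway Fancc, a core complex gene, had 214 and Fancd2, the protein that the complex modifies, 66.7. With 2 to 8 genes per pathway the ranges overlapped, and the pathway medians lay between 100 for the kinases and 147 for translesion synthesis. With a DHS counted only for the gene with the closest TSS they lay between 94.1 for the kinases and 214 for the Fanconi pathway, where Fancc alone then had a DHS.

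**Figure D3:**
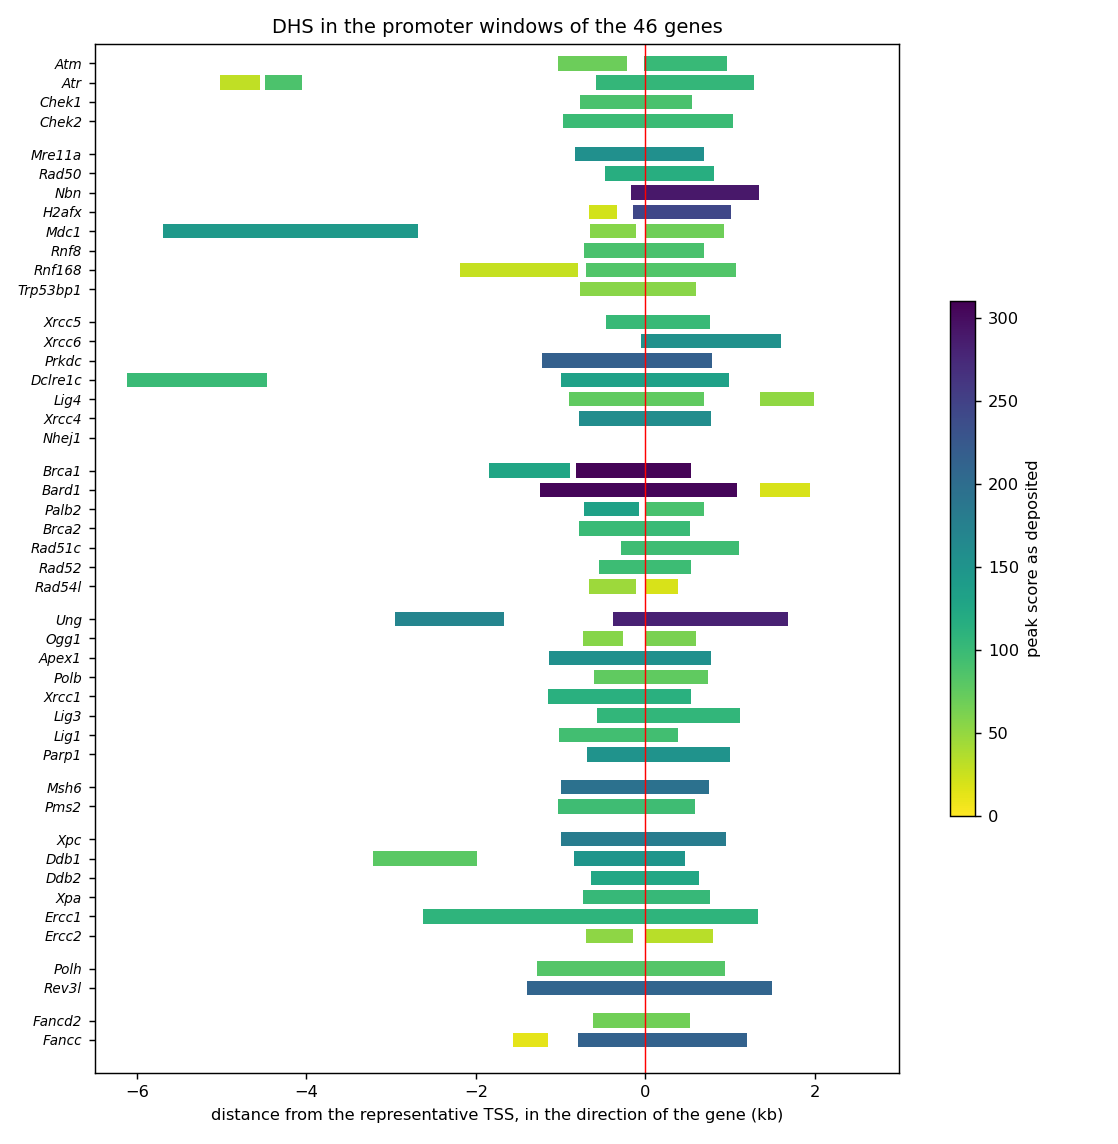
DHS in the promoter windows of the 46 genes, drawn by distance from the main TSS in the direction of the gene (x axis, kb), with the colour giving the score as deposited. Each row is 1 gene and the red line marks the TSS, which lay inside a DHS in 42 genes. Mdc1, Palb2 and Ogg1 show a gap at the TSS, and Nhej1 has no bar. DHS at later starts beyond the axis, as at Fancc, Xrcc6, Lig1 and Ogg1, are not drawn.

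At a few genes the accessible region was split at the start. The main TSS lay between neighbouring DHS at Palb2 (gap of 80 bp), Mdc1 (120 bp) and Ogg1 (266 bp). At Rad54l, Ercc2 and Atm the TSS was 9, 8 and 20 bp from the edge of such a gap, of 104, 136 and 194 bp. The scores on both sides were 45.4 and 18.9 at Rad54l, 52.9 and 32.8 at Ercc2 and 101 and 69.2 at Atm. A main TSS in a gap of up to 300 bp was found in 6.52% of the 46 genes (1.37 to 17.9) and in 6.13% of CpG-rich genes. Whether the peak caller split 1 region at these starts was not tested. Merging DHS closer than 500 bp, with the highest score kept, gave the same median top score of 108. Since the top score is already the highest of each gene, this merging could hardly change it and does not bear on the splits.

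Many of the repair genes shared their promoter with a second gene. A divergent neighbour, a protein-coding gene on the other strand that starts within 1 kb upstream, was found for 13 of 46 genes (28.3%, 16 to 43.5), beside 13.5% of CpG-rich genes and 21 of 77 other repair genes (27.3%, 17.7 to 38.6). The starts were 21 to 466 bp apart, with a median of 125 bp. The pairs were Lig4 and Abhd13 (21 bp), Fancd2 and Tmem111 (44 bp), Apex1 and Osgep (75 bp), Palb2 and Dctn5 (95 bp), Lig1 and 6330408A02Rik (105 bp), Rad51c and Tex14 (111 bp) and Pms2 and Aimp2 (125 bp). Further apart were Xpc and Lsm3 (151 bp), Polh and Xpo5 (230 bp), Chek2 and Hscb (240 bp), Brca1 and Nbr1 (270 bp), Atm and Npat (307 bp) and Prkdc and Mcm4 (466 bp).

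A single DHS covered both starts in 11 of the 13 pairs (84.6%, 54.6 to 98.1), and in 67.6% of the 1186 divergent CpG-rich genes. The exceptions were Atm and Palb2, where the DHS was split between the starts. At such pairs the DHS cannot be assigned to either gene. The median top score of the 13 genes was 99.2 and that of the 32 other genes with a DHS 114, while divergent CpG-rich genes had 130 and the other CpG-rich genes 111. When a DHS was counted only for the gene with the TSS closest to its centre, Apex1, Pms2, Ddb1, Polh and Fancd2 lost their DHS, and 87.0% of the 46 genes had one, beside 78% of CpG-rich genes under the same rule.

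**Figure D4:**
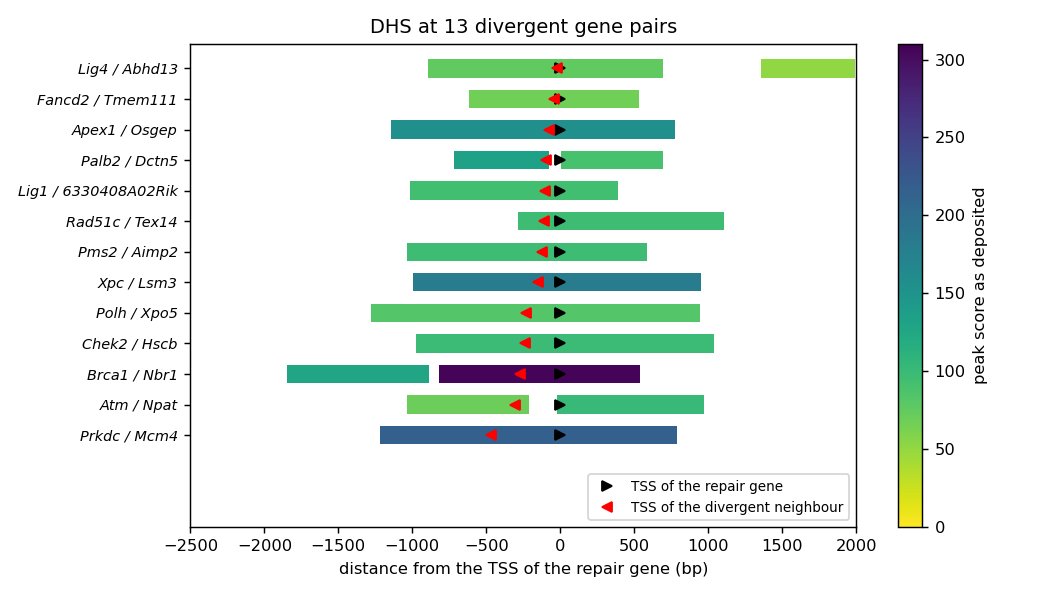
DHS at the 13 divergent gene pairs, ordered by the distance between the starts (x axis, bp from the TSS of the repair gene), with the colour giving the score as deposited. Black and red triangles mark the TSS of the repair gene and of its neighbour. In 11 pairs 1 bar covers both triangles, and at Palb2 and Atm the bars are split between them.

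The DNA between the starts is shown for 5 pairs, since a single accessible region covers both starts there, and for Palb2, where it is split. The sequences are on build mm9 and the strand of the repair gene, without annotated exons, and capitals again mark the promoter words.
Lig4 and Abhd13, chr8:9977687-9977706, minus strand: ttcatgctacggtagcccgt
Apex1 and Osgep, chr14:51544569-51544642, plus strand: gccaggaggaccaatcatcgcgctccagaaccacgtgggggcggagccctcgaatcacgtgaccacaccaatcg
Palb2 and Dctn5, chr7:129276461-129276554, minus strand: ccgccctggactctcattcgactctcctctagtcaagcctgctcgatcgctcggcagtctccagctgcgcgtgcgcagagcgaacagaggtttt
Pms2 and Aimp2, chr5:144670717-144670832, plus strand: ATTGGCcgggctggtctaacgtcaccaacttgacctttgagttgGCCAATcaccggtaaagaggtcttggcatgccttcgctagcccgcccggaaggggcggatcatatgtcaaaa
Brca1 and Nbr1, chr11:101413270-101413462, minus strand: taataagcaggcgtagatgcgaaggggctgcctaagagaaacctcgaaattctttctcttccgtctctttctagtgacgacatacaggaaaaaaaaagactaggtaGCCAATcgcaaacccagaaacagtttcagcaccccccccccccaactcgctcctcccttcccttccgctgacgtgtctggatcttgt
Polh and Xpo5, chr17:46339575-46339803, minus strand: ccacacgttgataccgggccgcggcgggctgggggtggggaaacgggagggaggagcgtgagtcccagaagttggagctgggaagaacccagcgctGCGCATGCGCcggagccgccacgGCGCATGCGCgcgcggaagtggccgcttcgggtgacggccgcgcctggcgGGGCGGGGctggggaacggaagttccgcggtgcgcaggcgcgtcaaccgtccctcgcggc
They differed widely in composition. The GC content was 50.3% between Brca1 and Nbr1, with 9 CpG in 193 bp, and 74.2% between Polh and Xpo5, with 34 CpG in 229 bp. The score of the DHS over the first was 308 and over the second 82.6. Pms2 carried an NF-Y word in each orientation, and Polh carried 2 NRF1 sites and 1 SP word.

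Short words bound by known promoter factors were then searched on both strands from 250 bp upstream to 50 bp downstream of the main TSS, as exact matches. The SP word (GGGCGGGG) was found in 13 of 46 promoters (28.3%, 16 to 43.5), in 42.3% of CpG-rich promoters and in 29.9% of the other repair genes (20 to 41.4). Msh6 held 4 matches, some of them overlapping, and Parp1 3. The NF-Y word (GCCAAT) was found in 9 (19.6%, 9.36 to 33.9) and in 20% of CpG-rich promoters, with 3 matches at Ercc2 and 2 each at Mre11a and Pms2. The ETS word (CCGGAAGT) was found in 6 (13%, 4.94 to 26.3, against 7.98%), which were Dclre1c, Fancd2, Lig4, Ogg1, Palb2 and Rnf168.

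The NRF1 word (GCGCATGCG) was found in 4 (8.70%, 2.42 to 20.8, against 3.86%), at Lig4, Polh, Prkdc and Xpa. Since it is nearly its own reverse complement, 1 site can match on both strands. The E2F words (TTTCGCGC or TTTGGCGC), which bind factors of the cell cycle, were found in 3 (6.52%, 1.37 to 17.9, against 1.74%), at Xrcc6, Lig1 and Ddb2. The cyclic AMP element (TGACGTCA) stood 29 bp upstream of the TSS at Brca2 and 13 bp upstream at Polb (4.35%, 0.531 to 14.8, against 3.69%). The YY1 word (AAGATGGCG) was found at Fancd2 alone (2.17%, 0.0550 to 11.5, against 3.27%). The ZNF143 word (CTACAATTC) was found in 0 of 46 (0 to 7.71%, against 0.490%). The interval of each of these 8 shares included the share in CpG-rich genes. A match is a string of letters and not evidence of binding.

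The p53 response element was also searched, since the study followed p53 in these cells. It was taken as a pair of adjacent decamers with at most 2 mismatches, the core C and G of both decamers being fixed. The study searched otherwise, with a matrix derived from its own p53 peaks and with a spacer between the decamers also allowed. Sites with a spacer are not counted here. Inside the 70 promoter DHS there was no such element, in 0 of 45 genes (0 to 7.87%), and 122 of 7491 CpG-rich genes with a promoter DHS (1.63%) had one. The limit by the rule of 3 counts for a count of 0 is 6.67%, slightly below the exact upper bound. In the windows but outside any DHS an element was found at Atr, Nhej1, Rad52, Rad54l, Lig1, Pms2 and Fancd2. These are 7 of 46 genes (15.2%, 6.34 to 28.9), and the same search found one in 12.2% of CpG-rich genes, which have a median of 3 annotated starts beside 4.5. Those nearest the main TSS are shown with the core C and G in capitals, on the strand of the gene.
Nhej1, chr1:75092295-75092314, minus strand, 1 mismatch: aacCaaGtccagaCatGtcc
Lig1, chr7:13865251-13865270, plus strand, 2 mismatches: aggCatGtacaacCatGcct
Atr, chr9:95754769-95754788, plus strand, 2 mismatches: aggCtaGtctaagCatGtga
The element was centred 908 bp downstream of the TSS at Nhej1, 1086 bp downstream at Lig1 and upstream of the main TSS at Atr. At the 4 other genes it lay at later annotated starts.

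Outside the promoter windows the genes held few DHS. Only 13 were called inside 9 of the 46 genes, with scores from 8.94 to 82.6 and a median of 28.7. Rnf8 had 3, at 82.6, 32.3 and 19.9, all of them closest to the start of Ftsjd2, which lies inside the annotated Rnf8 gene. Fancc and Xrcc1 had 2 each, the highest being 29.2 and 62.7, and Bard1, Nbn, Parp1, Polb, Xrcc5 and Xrcc6 had 1 each. The density was 6.54 DHS per Mb of gene outside the windows (exact Poisson interval 3.48 to 11.2), beside 18.8 for CpG-rich genes and 18.2 (13.4 to 24.1) for the other repair genes. Among genes of 10 to 100 kb the values were 9.10 (4.54 to 16.3) for 37 of the 46 genes, 12.8 (7.72 to 20) for 55 other repair genes and 25.8 for CpG-rich genes. Since DHS cluster, such intervals are too narrow. The share of genes with any DHS of this kind was 19.6% (9.36 to 33.9), beside 31.5% of CpG-rich genes and 24.7% of the other repair genes. Within 50 kb of the main TSS the median was 4.5 DHS (quartiles 3 and 7), and 5 (2 and 8) at CpG-rich genes. Ercc1 had the most with 18, and H2afx, Ercc2 and Parp1 had 14 each.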

How the data were processed

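The authors deposited 1 peak list for the DNaseI library, with a chromosome, start, end, name and score per peak. The peak names are those of the MACS caller. The score is the value deposited by the authors for each peak, its scale is not stated, and it was used only to describe and rank. The submitters' processing notes name mm9, BWA 0.6.2 and SAMtools, and the study's methods add that apoptotic cells were removed on a Ficoll gradient and isolated nuclei were digested with DNase I. The study's methods give a MACS version and threshold for ChIP-seq, but whether these were used for the DNaseI library is not stated, and its depth is not given in the sources used here.

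DHS were intersected with GENCODE M1 on NCBI build 37 (mm9) on chromosomes 1 to 19 and X (47474 of 47542 DHS), with an overlap of at least 1 bp, in Python 3.11.15 with pandas 2.3.3, scipy 1.17.1 and pysam 0.24.0. The main TSS was that of the transcript with the longest coding sequence, the most upstream at ties. Intervals are exact (Clopper-Pearson for shares, Poisson for densities) at 95%. The overlap step was tested on simulated data. RefSeq promoters of GRCm38.p6 were used as sequence only. Of 78 other repair genes listed, 77 matched the annotation. The gene sets and lists were chosen with earlier results of these data known. Named genes are those without a DHS, the 6 highest and 6 lowest, those of the CpG-poor class, with 4 or more DHS or a divergent neighbour, the extremes of each pathway and those with most DHS inside the gene, and the other members were added to complete their pathways. With 1 library no test was made and no p-value is given. Some genes of the marker and repair lists are not reported here.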

Additional observations from a re-analysis of the deposited data

How the results depend on the processing

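Of 52 alternatives to 26 values, 41 stayed within the interval of the main value, or within 1.5 times of a count. For the 9 pathway medians the range of top scores within the pathway took the place of an interval. All 9 are among the 41, but a median can hardly leave so wide a range, so that this says little. The median of the Fanconi pathway, for example, went from 140.5 to 214.2 under the closest-TSS rule. The share of the 46 genes with a promoter DHS was also 97.8% with a window of 1 kb on each side, with DHS at or above the median score and with the main TSS alone. It was 87.0% when a DHS counted only for the gene with the closest TSS, which removes DHS centred closer to the start of another gene, and 100% with RefSeq starts added. Of CpG-rich genes 84.3% had a promoter DHS with the window of 1 kb, 79.2% with DHS at or above the median score, 84.4% with the main TSS alone, 78% when a DHS counted only for the gene with the closest TSS and 88.9% in the class of GC at least 50% and CpG ratio at least 0.75. Their median top score was 111.1 without genes that have a divergent neighbour and 119.1 in that other class. Searched over the whole DHS at the TSS, which is longer than the promoter stretch, the SP word was found in 48.9% and the NF-Y word in 46.7% of the genes, beside 51.0% and 35.8% of CpG-rich genes. The use of RefSeq starts, the removal of DHS with repeated 31-base words the members of that other class and the closest-TSS rule for CpG-rich genes were chosen after seeing the data. No paired analysis was possible because there is 1 DNaseI library and no table of the input library was used. With 1 library neither the spread between animals nor the read depth is known, and weak DHS may have been missed.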
